A study of Homo sapiens with 6 samples.

Results

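The genes of the cereblon axis were followed at the RNA level in 3 human multiple myeloma lines: CRBN, DDB1, CUL4A and RBX1 of the ligase, its drug-induced substrates IKZF1 and IKZF3, the transcription factors IRF4 and MYC, and MAX, the partner of MYC. All probe sets annotated to 1 of these genes alone were taken. They are 9 of the 19775 genes that the arrays name in this way, with 29 probe sets. Of these probe sets 23 had a mean over the arrays at or above the brightness limit for testing, a log2 value of 6.36, and 6 lay below it. Each of the 9 genes had at least 1 probe set above the limit, so all 9 were among the 12078 genes tested.

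ARP1, OCI-MY5 and OPM2 are established human lines of multiple myeloma, the cancer of the plasma cells that secrete antibody. An antibody to CD24, a protein of the cell surface, was used to sort each line by flow cytometry, and the series set the CD24+ cells, described by its submitters as cancer stem cells, against the CD24− cells. RNA of each fraction of each line was hybridised to 1 Affymetrix Human Genome U133 Plus 2.0 array, which gave 6 arrays: ARP1 CD24+ and CD24−, OCI-MY5 CD24+ and CD24−, and OPM2 CD24+ and CD24−. The labels give no drug treatment and no genetic change made to any line, and they name no separate cultures. Tests between lines therefore took both fractions of a line as its 2 samples, tests between fractions took the 3 lines as samples, and p-values measure the spread between these arrays, which is partly technical.

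Cereblon is the subunit of an E3 ubiquitin ligase that recognises what the ligase will mark for destruction. DDB1 links it to the scaffold CUL4A, and RBX1 at the other end of the scaffold brings in the ubiquitin-charged enzyme. Lenalidomide and pomalidomide, drugs used against myeloma, bind cereblon and turn the ligase against the lymphoid transcription factors IKZF1 (Ikaros) and IKZF3 (Aiolos). Loss of these 2 proteins is known to be followed in sensitive myeloma cells by a fall of IRF4, a factor that myeloma cells depend on, and of MYC, which IRF4 activates and which binds DNA as a pair with MAX.

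The values were deposited MAS5 intensities. Differences are on the log2(intensity + 16) scale, on which changes of dim genes come out too small, and each gene is represented by its brightest probe set unless another is named. Genes were tested with limma's moderated statistics, and "passed" means a Benjamini-Hochberg adjusted p below 0.05 over all 12078 genes. Intensities of different genes come from different probes and were not compared with each other. The 6 arrays had the same scaled mean, but the CD24+ array of OPM2 stood apart: its spike-in controls were at 37362 against 6175 to 7399 on the others, and its median intensity was 135 against 69.0 to 84.2. The ratio of 3′ to 5′ signal of ACTB, a measure that is higher for shortened RNA, also varied. CD24+ first, it was 2.63 and 2.47 in ARP1, 9.36 and 23.2 in OCI-MY5, and 27.1 and 7.54 in OPM2. The same ratio of GAPDH was 1.27 and 1.27, 2.34 and 5.16, and 5.98 and 1.52. Both ratios were lowest on the 2 ARP1 arrays. The part of RNA quality in the results below, between lines or fractions, was not tested. Nor was that of the quality of the OPM2 CD24+ array. Values without the CD24+ array of OPM2 are given for the line differences of DDB1, CUL4A, IKZF3, IRF4 and MYC and for some differences between fractions. The gene lists are given only with it. Background was read from the probe sets for TrpnX, which comes from a bacterium and was not spiked in. They ran from 2.23 to 96.4. The upper end came from the CD24+ array of OPM2, and the highest TrpnX values of the other arrays were 10.3 to 64.5. This pooled range was applied to every array, so a value called within it can exceed the highest TrpnX value of its own array. Of the 29 probe sets 17 were above that range on all 6 arrays.

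Markers of the labelled cell type were present. All 8 plasma cell markers, among them SDC1, TNFRSF17, XBP1 and PRDM1, were above the TrpnX range on every array. Markers of other blood and stromal cells lay largely within it, and the brightest exceptions were 4 genes. GNLY, a granule protein of cytotoxic lymphocytes, was at 5215 and 6859 in ARP1, while CD3D, CD3G, CD5 and NKG7 were within the range on all 6 arrays. The T cell genes CD3E and CD2 were above it on some arrays. CD3E was at 105 in ARP1 CD24+ and 129 in OPM2 CD24+, and CD2 was at 150 and 132 in OPM2. HBB was at 2298 and 1793 in OPM2, through a probe set that can bind related transcripts, with ALAS2 within the range throughout. PAX5, a B cell factor, was at 272 to 421 in ARP1 and OCI-MY5 and at 15.9 and 16.4 in OPM2. Other B cell genes did not share that order. MS4A1, whose probe set can also bind related transcripts, was above the range in OPM2 CD24+ alone, at 209. CD22 was above it at 207 in ARP1 CD24+ and 216 in OPM2 CD24+, and CR2 was within it throughout. LYZ, CSF1R, MPO, COL1A2, COL3A1, DCN and LUM were above it on some arrays, the highest value being 264 for MPO in OPM2 CD24+. COL1A1 was at 181 to 369 on the 6 arrays through a probe set that can bind related transcripts. The summed intensity of the T and NK cell list was 250.2 to 5522 in the CD24+ arrays and 133 to 7105 in the CD24− arrays, that of the B cell list 459.95 to 679 and 168 to 584, that of the monocyte and granulocyte list 157 to 575 and 148 to 253, that of the stromal list 337 to 603 and 479 to 603, and that of the erythroid list 85.0 to 2385 and 195 to 1796. The part of these transcripts in the results was not tested.

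The main difference among the lines lay in IKZF3, which was about 3-fold lower in OPM2 than in either other line, and in MAX, which was nearly 2-fold higher there. Of the 9 genes 2 passed the test over the 3 lines, IKZF3 (adjusted p = 0.0133) and MAX (adjusted p = 0.0251). That test was passed by 28.5% of all genes tested, so 2 of 9 is not above the background. The ligase genes CRBN and RBX1 held within narrow limits over the 6 arrays. Since the arrays measure RNA of many cells, fewer cells carrying a transcript and less of it per cell cannot be told apart.

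**Figure D1:**
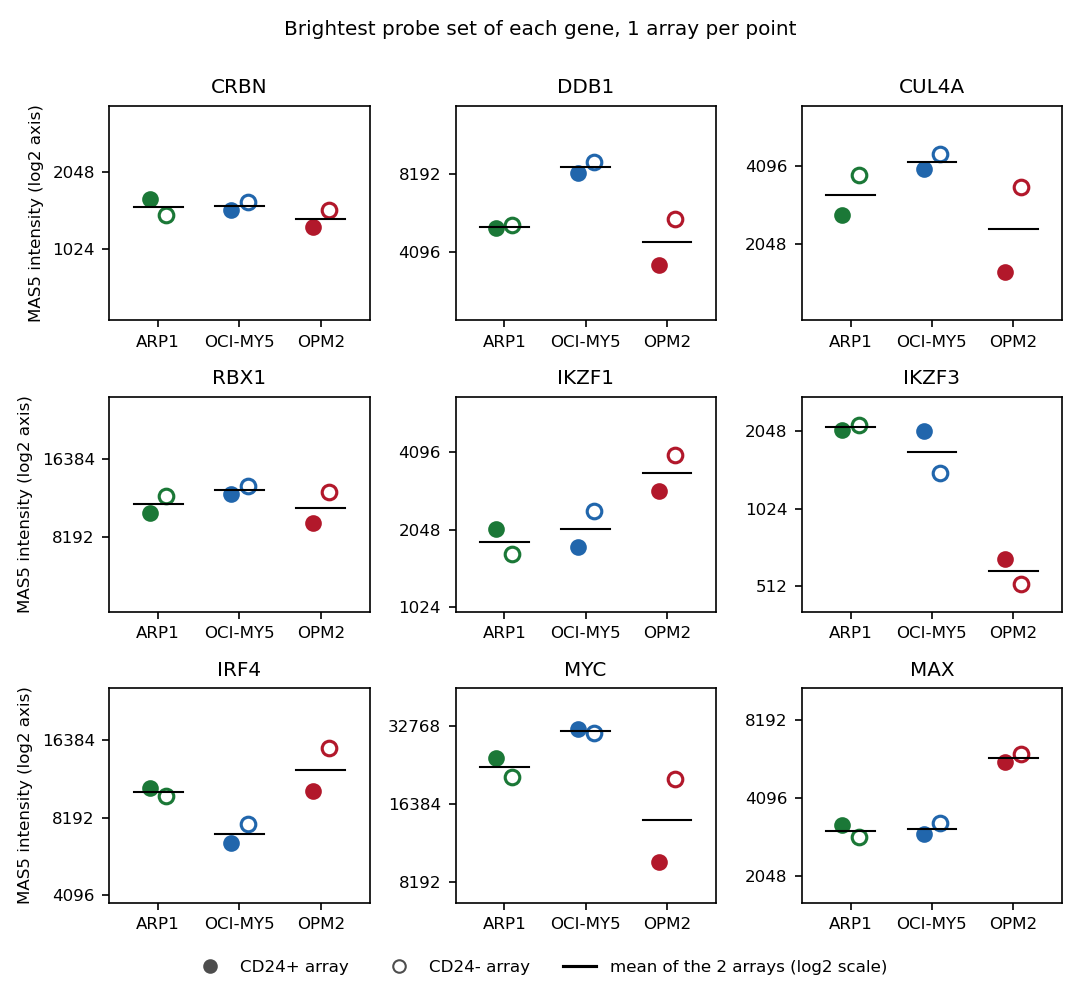
MAS5 intensity (vertical axis, log2-spaced, with the same fold span in each panel) of the brightest probe set of each of the 9 genes in ARP1, OCI-MY5 and OPM2. Each point is 1 array, filled for CD24+ and open for CD24−, and the bar is the mean of the 2 on the log2 scale. IKZF3 sits lower and MAX higher on both OPM2 arrays than on the other 4, and the CRBN points lie between 1254 and 1599.

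CRBN itself was nearly level. Its intensity, CD24+ array first, was 1599 and 1386 in ARP1, then 1456 and 1565 in OCI-MY5, and 1254 and 1451 in OPM2. The lines overlapped, and the standard deviation of CRBN over the 6 arrays was 0.13 on the log2 scale, against a median of 0.49 over all tested genes. OPM2 minus ARP1 was −0.14 (95% interval −0.62 to 0.33, limma) and OPM2 minus OCI-MY5 was −0.16 (−0.64 to 0.31), so each interval ends short of a 2-fold difference (1 on the log2 scale). The other probe set of the gene, 218142_s_at, ran from 882 to 1326 and also overlapped between lines, with differences of −0.22 and −0.14 for OPM2.

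DDB1, the adaptor that carries cereblon and many other receptors, was highest in OCI-MY5. Its intensity was 5068 and 5200.2 in ARP1, 8298 and 9183 in OCI-MY5, and 3667 and 5496 in OPM2, CD24+ first. Both OCI-MY5 arrays were above the other 4, while ARP1 and OPM2 overlapped. OPM2 minus OCI-MY5 was −0.96 ± 0.25 (SE; adjusted p = 0.0443), a 1.94-fold difference that passed, although the test over all 3 lines did not (adjusted p = 0.0677). Without the CD24+ array of OPM2 the difference was −0.67 (adjusted p = 0.0580), and the call was also lost without either ARP1 array (0.102 each) and without the CD24+ or CD24− array of OCI-MY5 (0.150 and 0.197). With line and fraction together in the model (the replicate block) its adjusted p was 0.0527.

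CUL4A, the scaffold, gave different results from its 2 bright probe sets. With 201424_s_at the intensity was 2648 and 3786 in ARP1, 3976 and 4537 in OCI-MY5 and 1592 and 3400.2 in OPM2. The fractions were as far apart as the lines there, and the gene did not pass (adjusted p = 0.295). With 201423_s_at it was 1882 and 2155 in ARP1, 1735 and 1736 in OCI-MY5 and 603 and 846 in OPM2. Both OPM2 arrays were below the other 4 on that probe set, by −1.47 against ARP1 and −1.26 against OCI-MY5. Of all probe sets above the limit 22.9% had that order. In the fit of every probe set on its own 201423_s_at passed between lines (adjusted p = 0.0264), as did 19.3% of all 22434 probe sets in that fit. The 2 dimmer probe sets, 232466_at and 227757_at, were within the TrpnX range on 1 and 5 of the 6 arrays, and 227757_at lay above the other 4 arrays in both OPM2 arrays, at 221 and 83.2 against 10.9 to 52.5. Both bright probe sets had their lower means in OPM2, and the dim ones are close to background. With 201424_s_at OPM2 minus ARP1 was −0.44 and OPM2 minus OCI-MY5 was −0.86. Without the CD24+ array of OPM2 they were 0.10 and −0.32, so the first changed sign.

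RBX1, the RING subunit, had a standard deviation of 0.18 over the 6 arrays, also below the median of all genes. It had 1 probe set, with 10162 and 11864 in ARP1, 12101 and 12973 in OCI-MY5, and 9312 and 12229 in OPM2. The lines overlapped. OPM2 minus ARP1 was −0.04 (95% interval −0.59 to 0.51) and OPM2 minus OCI-MY5 was −0.23 (−0.78 to 0.32), again short of 2-fold.

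Promoter windows of the RefSeq table (GRCh38.p14) were searched on both strands over 250 bases before each start, for the E-box CACGTG that MYC and MAX bind, the IRF element (GAAA and GAAA 2 bases apart) and the composite element of an ETS factor with IRF4 (GGAA and GAAA 2 bases apart). The table held 14 windows for 7 of the 9 genes and none for IKZF3. The 2 matches found, both before ligase genes, are shown, each as 30 bases read 5′ to 3′ with the motif in capitals. The E-box lies at chr22:40951249-40951278 (plus strand) before RBX1 and the composite element at chr13:113208493-113208522 (plus strand) before 1 of the starts of CUL4A.
RBX1: aagaggcgtggtCACGTGctccgcccccac
CUL4A: tggcgaggcgGGAAAGGAAAaggcctgagg
Over all genes there were 35116 windows, of which 6.34% held the E-box, 2.41% the composite element and 3.02% the IRF element, which none of the 14 windows held. Neither RBX1 nor CUL4A, by its brightest probe set, passed between lines. A relation between the motifs and the RNA level of any gene was not tested. These letters describe the windows and say nothing of binding.

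IKZF1 and IKZF3, the 2 substrates, lay on opposite sides in OPM2. IKZF1 had its highest values there: 2882 and 3993 in OPM2, 2054 and 1649 in ARP1, and 1759 and 2421 in OCI-MY5. Both OPM2 arrays were above the other 4, and 21.3% of all genes showed that order. OPM2 minus ARP1 was 0.88 ± 0.28 (SE; adjusted p = 0.0750) and OPM2 minus OCI-MY5 was 0.71 ± 0.28 (adjusted p = 0.120), so the gene did not pass. The next 3 probe sets by brightness, 227346_at, 227344_at and 205038_at, showed the same order, with OPM2 above ARP1 by 0.73, 0.35 and 0.65, and none of them passed; 20.3% of all probe sets above the limit had that order. The other 5 IKZF1 probe sets were dim: 4 lay below the brightness limit, and these had 5 or 6 arrays within the TrpnX range. Above the limit, 1565817_at overlapped between lines, with OPM2 minus ARP1 at 0.07. Below it, both OPM2 arrays were lowest on 1565818_s_at and highest on 220704_at. The mean of all IKZF1 probe sets gave 0.28 for OPM2 minus ARP1 (adjusted p = 0.530, limma) and 0.52 for OPM2 minus OCI-MY5 (adjusted p = 0.2465).

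On each of its 3 probe sets IKZF3 had its lowest values in OPM2. With 227030_at the intensity was 2068 and 2156.5 in ARP1, 2052 and 1412 in OCI-MY5, and 653 and 525 in OPM2, CD24+ first. Both OPM2 arrays were below the other 4 with no overlap, as for 25.3% of all genes. The 2 further probe sets had the same order: 236301_at was at 189.7 and 242 in OPM2 against 588 to 910.0 in the other lines, and 221092_at at 7.23 and 53.4 against 69.9 to 233, with both OPM2 values and the 69.9 within the TrpnX range. Of all probe sets above the limit 22.9% had this order. In the fit of every probe set 236301_at passed between lines (adjusted p = 0.0133) and 221092_at did not (adjusted p = 0.0805).

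OPM2 minus ARP1 was −1.82 ± 0.25 for IKZF3 (SE; adjusted p = 0.00876), a 3.54-fold difference. OPM2 minus OCI-MY5 was −1.51 ± 0.25 (adjusted p = 0.0134), or 2.86-fold. OCI-MY5 and ARP1 differed by −0.31 ± 0.25, which did not pass (adjusted p = 0.521). A gene lower in OPM2 than in both other lines, with both adjusted p-values below 0.05, was found in 10.1% of all genes, and IKZF3 is the 1 such gene among the 9. Leaving out the CD24+ array of OPM2 left IKZF3 at −1.98 against ARP1 (adjusted p = 0.0138) and −1.67 against OCI-MY5 (adjusted p = 0.0202). The test over 3 lines was lost without either ARP1 array, at adjusted p = 0.0665 and 0.0680, and without the limit on dim genes, at 0.0501. OPM2 minus ARP1 was lost without the CD24+ or CD24− array of ARP1, at −1.85 (adjusted p = 0.0697) and −1.79 (adjusted p = 0.0717). OPM2 minus OCI-MY5 was lost without the CD24+ array of OCI-MY5, at −1.25 (adjusted p = 0.0722).

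**Figure D2:**
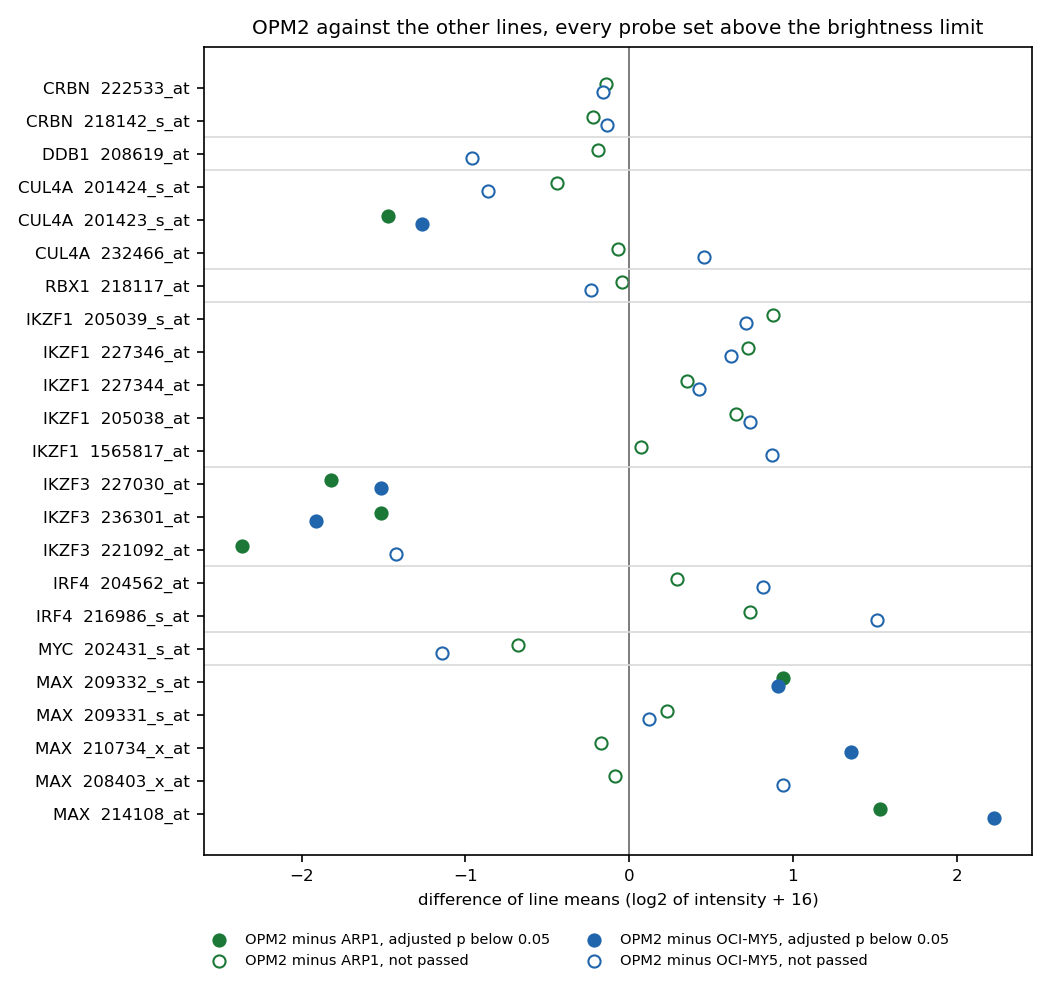
Difference of line means (horizontal axis, log2 of intensity + 16) for OPM2 minus ARP1 (green) and OPM2 minus OCI-MY5 (blue), for each of the 23 probe sets above the brightness limit, grouped by gene. Filled points passed at an adjusted p below 0.05 in the fit of every probe set on its own, and open points did not; the 3 IKZF3 probe sets lie to the left of 0, and the CUL4A and MAX probe sets spread to both sides or differ in size.

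IRF4, the factor downstream of IKZF1 and IKZF3, was bright in every line. Its intensity was 10618 and 9926 in ARP1, 6548 and 7708 in OCI-MY5, and 10389 and 15166 in OPM2. OCI-MY5 was lowest on both arrays, and the arrays of ARP1 and OPM2 overlapped. OPM2 minus OCI-MY5 was 0.82 ± 0.25 (SE; adjusted p = 0.0655) and OPM2 minus ARP1 was 0.29 ± 0.25 (adjusted p = 0.424). Without the CD24+ array of OPM2 the first of these was 1.09 and passed (adjusted p = 0.0238). A second probe set, 216986_s_at, had 402 and 332 in OPM2, 203 and 223 in ARP1 and 183.6 and 73.7 in OCI-MY5, the same order of line means.

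MYC was lowest on average in OPM2, but mainly through 1 array. Its probe set had 24695 and 20759 in ARP1, 31794 and 30888 in OCI-MY5, and 9789.8 and 20467 in OPM2. Both OPM2 arrays were below the other 4, the CD24− array by a small margin, and 25.3% of all genes showed that order. OPM2 minus OCI-MY5 was −1.15 ± 0.38 (SE; adjusted p = 0.0815) and OPM2 minus ARP1 was −0.68 ± 0.38 (adjusted p = 0.241). Without the CD24+ array of OPM2 they were −0.61 (adjusted p = 0.0870) and −0.15 (adjusted p = 0.616).

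MAX was higher in OPM2 by its brightest probe set. With 209332_s_at the intensity was 3210.4 and 2880.2 in ARP1, 2961 and 3276 in OCI-MY5, and 5641 and 6081 in OPM2. Both OPM2 arrays were above the other 4, as for 21.3% of all genes, and the 2 fractions of a line were close together. OPM2 minus ARP1 was 0.94 ± 0.18 (SE; adjusted p = 0.0199), a 1.92-fold difference, and OPM2 minus OCI-MY5 was 0.91 ± 0.18 (adjusted p = 0.0212), or 1.88-fold. Genes higher in OPM2 than in both other lines in this way were 6.38% of all, and MAX is the 1 among the 9.

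The call for MAX was less firm than its direction. With the replicate block the test over lines gave an adjusted p of 0.0536, without the limit on dim genes 0.0964, and without any 1 of the 4 arrays of ARP1 and OCI-MY5 0.0898 to 0.0975. When each array was centred on its median, which moves the median difference of all genes to −0.30 against ARP1 and −0.40 against OCI-MY5, MAX stood at 0.68 (adjusted p = 0.325) and 0.51 (adjusted p = 0.436), while IKZF3 stood at −2.09 and −1.91 and still passed. Its other probe sets did not all show the order. Probe set 214108_at was also higher in OPM2, at 306 and 366 against 42.9 to 128 (adjusted p over lines 0.0226 in the fit of every probe set). Probe set 209331_s_at overlapped between lines, and 210734_x_at was low in OCI-MY5 alone, at 147 and 98.8, with 365 and 391 in ARP1 and 380.2 and 293 in OPM2 (adjusted p = 0.0298). The OPM2 arrays also overlapped with the others on 208403_x_at, with differences of −0.09 against ARP1 and 0.94 against OCI-MY5. Probe sets 210734_x_at and 208403_x_at can bind related transcripts. The mean of all 5 MAX probe sets gave 0.49 for OPM2 minus ARP1 (adjusted p = 0.121) and 1.11 for OPM2 minus OCI-MY5 (adjusted p = 0.0127), and the test over lines passed (adjusted p = 0.0247).

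Pair by pair, OPM2 minus ARP1 passed for 2 of the 9 genes, against 25.0% of all genes. OPM2 minus OCI-MY5 passed for 3, IKZF3, MAX and DDB1, against 26.1%. OCI-MY5 minus ARP1 passed for 0 of the 9, against 2.62%, and its largest differences among them were 0.76 ± 0.25 for DDB1 (SE; adjusted p = 0.152) and −0.53 ± 0.25 for IRF4 (adjusted p = 0.273). These comparisons share lines. Over all genes the passing differences of OPM2 against ARP1 were 1225 higher and 1793 lower, and 413 and 1454 with median centring. Against OCI-MY5 they were 1371 higher and 1779 lower, and 489 and 1681 with centring. The share of a gene's variance that lay between lines was 97.6% for MAX, 95.2% for IKZF3 and 39.2% for CRBN, with a median of 77.5% over all tested genes.

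None of the 9 genes passed the test between CD24 fractions, nor did any other gene (0.0%); 1.23% of all genes had an unadjusted p below 0.05, and none of the 9 did. The adjusted p was 1.0 for each of the 9 genes. With the line as a block, where 4.64% of all genes had an unadjusted p below 0.05 and again none of the 9, the adjusted p ran from 0.847 to 0.970. The 95% intervals of the blocked fit stayed within a 2-fold difference for 7 of the 9 genes. For CRBN the interval was −0.49 to 0.42 and for MAX −0.46 to 0.40. The exceptions were CUL4A (−1.23 to 0.03) and MYC (−1.11 to 0.60).

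Ligase genes had the lower value in CD24+ cells of each line in 3 of 4 cases. In the order ARP1, OCI-MY5, OPM2, CUL4A stood at −0.51, −0.19 and −1.09, a mean of −0.60 ± 0.45 (SD, n = 3 lines; unadjusted p = 0.0582 with the block, limma). DDB1 stood at −0.04, −0.15 and −0.58, and RBX1 at −0.22, −0.10 and −0.39. Without the CD24+ array of OPM2 the unpaired fit gave −0.26 for CUL4A, 0.02 for DDB1 and −0.15 for RBX1. The CD24− array of OPM2 stayed in that fit without a partner, so differences between lines enter these values. Within ARP1 and within OCI-MY5 all 3 genes were lower in CD24+ cells, as the values above show. Of all genes 12.2% were lower in CD24+ cells in all 3 lines and 16.9% higher; among the 9 genes 3 were lower and 0 higher. The values of CUL4A above are those of its brightest probe set, and 201423_s_at gave −0.19, 0.00 and −0.48. As means over the lines 201423_s_at stood at −0.22 and the dimmer 232466_at at −0.31, the latter with signs that varied. Probe set 227757_at, below the brightness limit, stood at 0.84, and the mean of all 4 probe sets gave −0.07.

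The fractions of OPM2 lay further apart than those of the other lines over all genes, with a median absolute difference of 0.41 against 0.20 in each of ARP1 and OCI-MY5. Among the 9 genes these medians were 0.47, 0.20 and 0.15. In OPM2 8 of the 9 genes were lower on the CD24+ array, where 46.2% of all genes were lower, and their median difference was −0.47 against 0.06 over all genes. In ARP1 4 of 9 were lower (48.6% of all genes) and in OCI-MY5 7 of 9 (46.0%), with medians of 0.10 and −0.14. CUL4A (−1.09) and MYC (−1.06) were at least 2-fold lower in CD24+ cells of OPM2, as were 5.21% of all genes, and none of the 9 was 2-fold apart in ARP1 or OCI-MY5, where 5.07% and 5.72% of all genes were. Each of these differences is between 2 arrays and has no replicate check.

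MYC changed sign with 1 array left out. In the same order its differences were 0.25, 0.04 and −1.06, a mean of −0.26 ± 0.71 (SD, n = 3 lines). Without the CD24+ array of OPM2 the unpaired fit gave 0.25, the opposite sign. The CD24− array of OPM2 stayed in that fit without a partner, so differences between lines enter this value. IRF4 stood at 0.10, −0.23 and −0.55, and IKZF1 at 0.31, −0.46 and −0.47. IKZF3 was the 1 gene higher on the CD24+ array of OPM2, at 0.30, with 0.53 in OCI-MY5 and −0.06 in ARP1; its other probe sets 236301_at and 221092_at stood at −0.33 and −1.58 in OPM2, and the mean of its 3 probe sets gave −0.25 as the mean over lines. CRBN stood at 0.20, −0.10 and −0.21, and MAX at 0.16, −0.14 and −0.11, both with signs that varied between lines. The dim IRF4 probe set 216987_at, below the brightness limit, was at 104, 40.5 and 109 on the CD24+ arrays, in that order of lines, and at 1.37, 1.40 and 28.0 on the CD24− arrays, values largely within the TrpnX range.

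**Figure D3:**
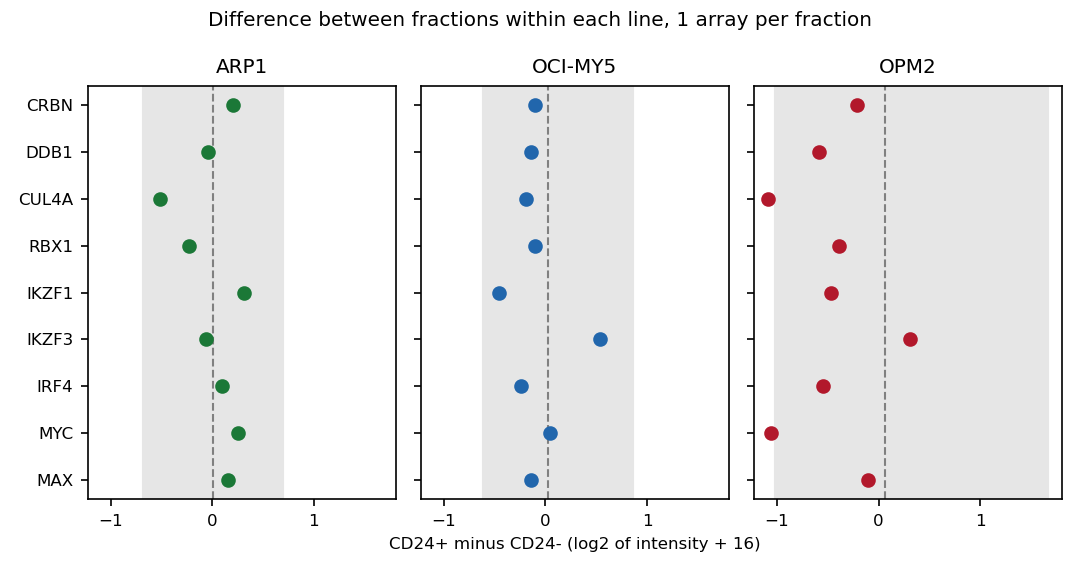
CD24+ minus CD24− (horizontal axis, log2 of intensity + 16) of the 9 genes within ARP1, OCI-MY5 and OPM2, each point the difference of 2 arrays. The grey band spans the 5th to 95th percentile of all 12078 tested genes in that line and the dashed line is their median; CUL4A (−1.09) and MYC (−1.06) lie at the lower edge of the wide OPM2 band.

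Other genes of the pathway were described through 7 lists. Of the genes that assemble and recycle CUL4 ligases 4 of 19 tested passed between lines, against 28.5% of all genes; 2 were lower in OPM2 than in both other lines (10.1% of all genes) and 0 higher (6.38%). COPS6, a subunit of the COP9 signalosome that strips NEDD8 from cullins, was at 6126 and 5338 in ARP1, 4576 and 4685 in OCI-MY5 and 1460 and 1988 in OPM2. ARIH1, a ligase that works with neddylated cullins to place the first ubiquitin, stood at −1.20 in OPM2 against ARP1 and −1.23 against OCI-MY5. NEDD8, the modifier that activates cullins, was lower in OPM2 than in OCI-MY5 by −0.89 (adjusted p = 0.0216). By fraction, CAND1 (−0.21, −0.09 and −0.73 in ARP1, OCI-MY5 and OPM2) and COPS2 (0.13, 0.14 and 0.11) kept a sign in all lines, and neither passed.

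Of 20 other substrate receptors of CUL4 ligases, which compete with cereblon for DDB1, 3 passed between lines (28.5% of all genes) and 2 were lower in OPM2 than in both other lines (10.1%). DCAF13 was at 2738 and 3625 in OPM2 against 7131 to 10384 elsewhere, and BRWD1 stood at −1.46 and −1.48 against ARP1 and OCI-MY5. ERCC8, the receptor of transcription-coupled repair, was lower in OPM2 than in OCI-MY5 by −1.08 (adjusted p = 0.0240). DCAF15, the receptor that aryl sulfonamide drugs engage, had CD24+ minus CD24− values of 0.61, 0.92 and 1.37, and DCAF11 of 0.44, 0.34 and 0.43. Neither passed (adjusted p = 1.0 for each, limma).

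Of 17 tested genes among other cereblon substrates and partners 7 passed between lines (28.5% of all genes), 2 of them lower in OPM2 than in both other lines (10.1%) and 1 higher (6.38%). GLUL, glutamine synthetase, a substrate of cereblon without drug, was at 3325 and 2936 in ARP1, 207 and 226 in OCI-MY5, and 14.0 and 6.81 in OPM2, both within the TrpnX range. ZNF827, a zinc finger protein, was at 121 and 41.4 in OPM2 against 2454 to 2879 elsewhere. RNF166 was lower in OCI-MY5, at 197 and 250.2, than in ARP1, at 699 and 807. IKZF2 and IKZF4, the relatives of IKZF1 and IKZF3, did not pass in either comparison; their CD24+ minus CD24− values were 0.62, 0.90 and 1.34 for IKZF2 and 0.33, 0.49 and 0.91 for IKZF4, with IKZF2 within the TrpnX range on its 3 CD24− arrays.

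Of IRF4 partners and targets 10 of 19 tested passed between lines (28.5% of all genes). Counted by the 2 differences of OPM2, 5 were higher there than in both other lines (6.38% of all genes), among them XBP1, which did not pass the test over lines (adjusted p = 0.0573), and 2 were lower (10.1%). POU2AF1, a B cell coactivator, was at 29408 and 25722 in OPM2, 4702 and 4211 in ARP1 and 1234 and 1308 in OCI-MY5. SLAMF7, a plasma cell surface protein and antibody target in myeloma, was at 6757 and 6263 in OPM2 against 257 to 736 elsewhere. BATF, which pairs with IRF4 on DNA, was at 69.96 and 52.8 in OPM2, within the TrpnX range, against 789.8 to 936 elsewhere. This list shares SLAMF7, TNFRSF17, XBP1, PRDM1 and CD38 with the plasma cell markers, of which 5 of 8 passed; 5 of the 8 were higher in OPM2 than in both other lines, and MZB1 was lower there than in ARP1. By fraction SPIB (0.45, 1.47 and 2.49) and POU2F2 (0.32, 0.79 and 3.37) had the same sign in all lines without passing, with CD24− values within the TrpnX range in all 3 lines for SPIB and in ARP1 and OPM2 for POU2F2.

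Among the relatives of MYC and MAX 1 of 9 tested passed between lines (28.5% of all genes), MYCN, a MYC paralogue. It was at 843 and 1068 in ARP1, 130.3 and 203 in OCI-MY5 and 1658 and 1521 in OPM2, so OPM2 and OCI-MY5 differed by 3.16 ± 0.27 (SE; adjusted p = 0.00233). The line with the highest MYC on average, OCI-MY5, had the lowest MYCN, but MYC itself did not pass between lines (adjusted p = 0.1375, limma). A relation between the 2 genes was not tested. MXD3 (0.11, 0.70 and 0.56) and MGA (−0.06, −0.04 and −0.17), both MAX partners, kept a sign between fractions and did not pass.

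Of 11 genes of MYC turnover and cofactors 3 passed between lines, a share close to the 28.5% of all genes. FBXW7, the ligase receptor that marks MYC for destruction, was at 3537 and 3835 in OCI-MY5 and at 1320 to 1717 in the other lines. WDR5 and TRRAP, cofactors of MYC on chromatin, were lower in OPM2 than in both, WDR5 by −2.35 and −1.47 and TRRAP by −1.34 and −1.60. By fraction FBXW7 (−0.26, −0.12 and −0.36) and HUWE1 kept a sign in all lines without passing. HUWE1 had CD24+ minus CD24− values of 0.18, 0.07 and 1.08, from a probe set that can bind related transcripts.

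MYC target genes were the list with the lowest medians in OPM2: −0.31 against ARP1 and −0.53 against OCI-MY5, where the medians of all genes were −0.04 and 0.00. Of 26 tested, 5 passed between lines, 4 of them lower in OPM2 than in both other lines and 0 higher. CAD, a pyrimidine synthesis enzyme, was at 556 and 1001 in OPM2 against 1594 to 2601 elsewhere. NOP16, a nucleolar protein, stood at −1.07 and −1.51, and TFRC, the transferrin receptor, at −1.54 and −0.78. Over all genes 28.5% passed between lines, 10.1% were lower in OPM2 than in both and 6.38% higher. Between fractions EIF4E (−0.29, −0.17 and −0.53) and PES1 (0.34, 0.50 and 0.36) had the same sign in all lines, with opposite directions, and neither passed.

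**Figure D4:**
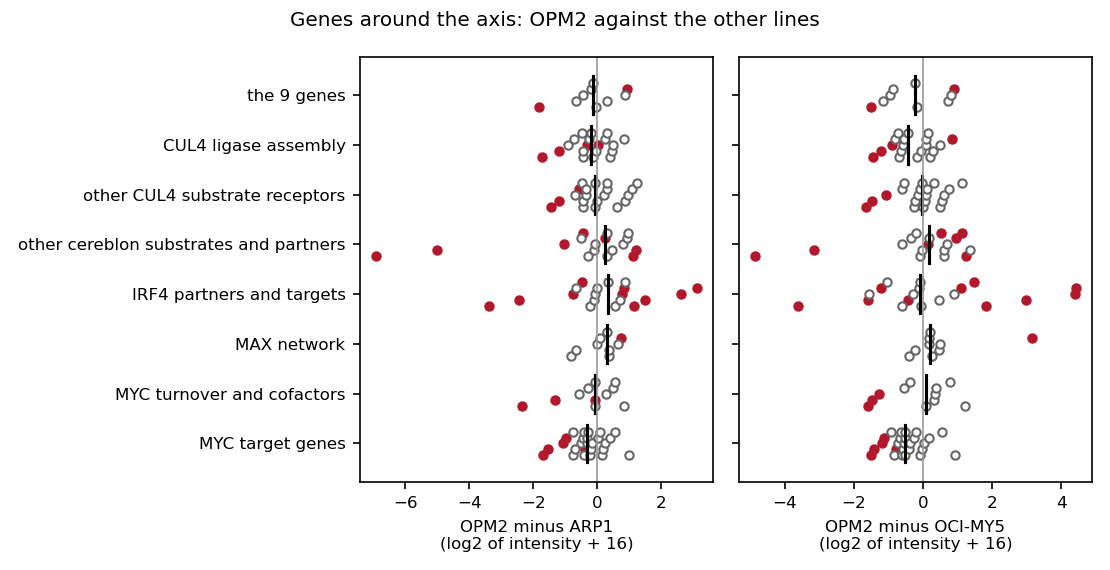
OPM2 minus ARP1 and OPM2 minus OCI-MY5 (horizontal axes, log2 of intensity + 16) for the 9 genes and for the tested genes of 7 lists around them, each point 1 gene. Red points passed the test over 3 lines and open points did not; black bars are list medians, which for the MYC target genes are −0.31 and −0.53.

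The genes with the most similar profile were found by the root mean square difference of centred log2 values over the 6 arrays. For CRBN they were VPS29 (0.024), SART3 (0.037) and NUP35 (0.044), but 1805 genes lay within 0.25 of CRBN, as its profile is nearly flat. For IKZF1 they were SPATS2 (0.038), BPTF (0.084) and LEPROT (0.096), with 301 genes within 0.25. For IKZF3 they were CFAP20DC (0.089), TAPBP (0.13) and FER (0.13), with 61 genes within 0.25, the fewest of the 5 genes examined. For IRF4 they were MTM1 (0.080), SHROOM3 (0.10) and PLEKHA3 (0.10), with 397 within 0.25. For MYC they were TRA2A (0.094), CUL2 (0.11) and LYAR (0.11), with 201. TAPBP, for example, was at 630 and 515 in OPM2 against 1633 to 2256 elsewhere, and TRA2A at 2123 and 4586 in OPM2 against 5322 to 6865.

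**Figure D5:**
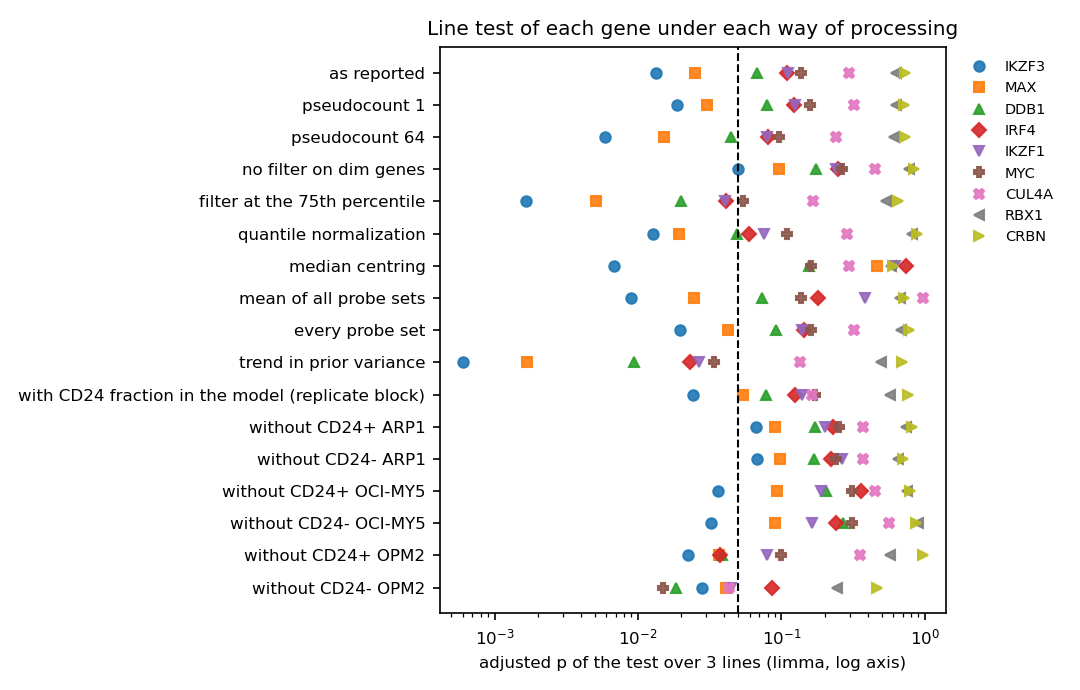
Adjusted p of the test over 3 lines (horizontal axis, log-spaced) for the 9 genes under each way of processing (rows), with the dashed line at 0.05. IKZF3 lies left of the line as reported (0.0133) and right of it without either ARP1 array and without the limit on dim genes, and MAX (0.0251 as reported) crosses in 7 rows.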

How the data were processed

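RNA of 6 sorted fractions was hybridised to U133 Plus 2.0 arrays. Per the submitters' processing notes, the authors computed MAS5 intensity values with Affymetrix Expression Console 1.1; each deposited column is scaled to 1 trimmed mean (499.9). Genome build and scan dates were not given in the sources used here. Of 54675 probe sets 62 controls were left out; 41091 had 1 gene symbol, 1801 several and 11721 none, and 41037 matched the RefSeq table by Entrez ID. Values were taken as log2(intensity + 16), the brightest probe set stood for a gene, and genes whose mean reached 6.36, the median over all probe sets, went into two-sided tests by lmFit and eBayes of limma 3.58.1 (R 4.3.3) with Benjamini-Hochberg adjustment. The test was checked on simulated data.

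Groups came from titles, whose numbers 1 to 3 stand for the lines, so equal numbers pair the fractions of 1 line. After the group means were subtracted, arrays correlated at 0.63, 0.63 and 0.70 within lines and −0.53 to 0.10 between lines. The series' text states no pairing, so the block was the alternative. The number of arrays limits the precision.

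The 9 genes and all lists were chosen with earlier results of these data known. The rule named every probe set of the 9 genes, from each list up to 3 genes past the adjusted threshold with the largest range of line means and up to 2 with 1 sign of CD24 difference in all 3 lines, and the 3 nearest profiles of 5 genes. Alternatives were pseudocounts of 1 and 64, no limit or the 75th percentile as limit, quantile normalization, median centring, the mean of probe sets or each on its own, a trend in the prior variance, the block, and leaving out each array or line.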

Additional observations from a re-analysis of the deposited data

How the results depend on the processing

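IKZF3 stayed lower in OPM2 under all 16 alternatives, from −2.09 to −1.67 against ARP1 and from −1.91 to −1.25 against OCI-MY5, and MAX stayed higher, from 0.49 to 1.02 and from 0.51 to 1.11; the difference of DDB1 between OPM2 and OCI-MY5 no longer passed under 10 of them. The cause of each lost call was not tested. The 2 of 9 genes that passed between lines became 0 with no limit on dim genes, where more genes are tested, 5 with the limit at the 75th percentile, 1 with median centring, 6 with a trend in the prior variance and 1 with the replicate block; leaving out 1 array gave 0 to 6. Over all genes, the 3437 that passed between lines became 1356 with no limit and 2137 with median centring, and 1058 to 5018 without 1 array. For OPM2 minus ARP1 the 3018 became 1430 with no limit and 1867 with centring, and 680 to 4229 without 1 array. For OPM2 minus OCI-MY5 the 3150 became 1640 with no limit, and 952 to 4575 without 1 array. For OCI-MY5 minus ARP1 the 316 became 163 and 747 with pseudocounts of 1 and 64, 0 with no limit, 1281 at the 75th percentile, 146 with centring, 137 with the mean of probe sets, 136 for every probe set, 1375 with the trend, 6 with the replicate block, and 0 to 1174 without 1 array. No gene passed between CD24 fractions under any of the 19 alternatives, the replicate block included (560 at an unadjusted p below 0.05), and the block changed no other call among the 9 genes than those given for MAX and DDB1. Dim probe sets near the TrpnX range limit what can be said of IKZF1 and CUL4A isoforms.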
